A study of Mus musculus with 12 samples.

Results

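Cyp1b1 and 4 genes of the aryl hydrocarbon receptor (AhR) pathway, Ahr, Arnt, Ahrr, and Tiparp, were followed through 3 groups of mouse myeloid-derived suppressor cells (MDSCs), which can hold back T cell responses. They are 5 of the 35303 gene symbols in the count table and were matched by symbol. Cyp1b1 was chosen by its measured counts, which were higher in both nanoparticle groups than in unmodified cells. Its values in those 2 comparisons are therefore given as a description, without a test. The other 4 genes were taken for their place in the pathway, with earlier results of these data known. All 5 were among the 17676 genes tested.

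The 12 libraries hold poly(A)-enriched RNA of wild-type cells. The labels give IL6 as the treatment of all 3 groups, so every library, controls included, comes from cells kept with this cytokine. The group MDSC is the unmodified control, MDSC-NP-Blk carries blank poly(lactide-co-glycolide) nanoparticles on the cell surface, and CITED carries the same kind of particle loaded with rapamycin, an inhibitor of mTOR. Each group has 4 libraries. Per the study's methods, the cells were grown from bone marrow of female C57BL/6 mice with granulocyte-macrophage colony-stimulating factor and IL-6, purified on their surface markers, and coupled to the particles by click chemistry between azido groups on the cell and dibenzocyclooctyne on the particle. Whether the unmodified MDSCs also received the azido sugar is not stated, so the chemistry and the particle cannot be told apart. The labels call the libraries biological replicates without saying whether they came from separate mice or cultures, so the p-values measure the spread between these libraries.

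The library totals ran from 20604809 to 37855478 counts. The labels give the tissue as the central nervous system, whereas the methods describe cultured cells. Of 7 nervous system markers, Gfap, Aqp4, Snap25, Rbfox3, and Olig2 had 0 counts in all 12 libraries, while Mbp had 1492 to 3240. All 8 MDSC markers were detected in every group. Their sum was taken in counts per 1e+06 after rescaling for library size and composition (CPM). It ranged from 24455 to 27944 in unmodified cells, from 33389 to 35359 with blank particles, and from 25820 to 29599 in CITED. Most of this sum came from S100a8 and S100a9 in every group. Among the other markers, Csf3r and Itgam had their highest means in CITED, while Ly6c2 and Ly6c1 had their lowest there. The composition factors were 1.118 to 1.148 in MDSC and 0.9214 to 0.9465 in the particle groups, so sums by library totals alone would differ. T cell markers summed to at most 2.46 CPM, stromal markers to at most 4.25, erythroid markers to at most 2.69, and endothelial markers to at most 12.8.

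AhR is a transcription factor that is switched on by ligands such as polycyclic aromatic hydrocarbons, tryptophan metabolites, and bilirubin-like pigments. Without ligand it rests in the cytosol with the chaperone Hsp90 and the cochaperone p23. With ligand it moves to the nucleus, pairs with Arnt, and binds DNA elements with the core GCGTG. Its best known targets are cytochrome P450 enzymes that oxidize the ligands, and 2 other targets act back on it. Ahrr competes for Arnt and DNA, and Tiparp attaches ADP-ribose to AhR and dampens its activity. In myeloid cells and lymphocytes the pathway is known for its part in tolerance and in the response to tryptophan catabolites.

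The proximal promoters of the known AhR targets are shown because the core element can be read in them. The sequences are those of RefSeq on the mouse build GRCm38.p6 and cover the 250 bases before the annotated start, 5′ to 3′ on the strand of the gene. Capitals mark GCGTG or, where the element lies on the other strand, its reverse complement CACGC. Cyp1b1 at chr17:79715062-79715311 on the minus strand, Ahrr at chr13:74292332-74292581 on the minus strand, and Tiparp at chr3:65528197-65528446 on the plus strand read as follows.
Cyp1b1: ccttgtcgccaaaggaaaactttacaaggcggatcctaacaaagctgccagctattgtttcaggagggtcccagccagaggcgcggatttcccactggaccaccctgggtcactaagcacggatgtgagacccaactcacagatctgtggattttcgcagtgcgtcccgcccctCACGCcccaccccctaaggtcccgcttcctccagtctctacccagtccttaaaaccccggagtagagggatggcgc
Ahrr: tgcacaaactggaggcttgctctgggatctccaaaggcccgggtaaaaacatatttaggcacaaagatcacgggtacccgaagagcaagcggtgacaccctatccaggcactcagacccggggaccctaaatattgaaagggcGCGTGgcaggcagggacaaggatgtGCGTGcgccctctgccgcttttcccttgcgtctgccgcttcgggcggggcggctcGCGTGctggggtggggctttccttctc
Tiparp: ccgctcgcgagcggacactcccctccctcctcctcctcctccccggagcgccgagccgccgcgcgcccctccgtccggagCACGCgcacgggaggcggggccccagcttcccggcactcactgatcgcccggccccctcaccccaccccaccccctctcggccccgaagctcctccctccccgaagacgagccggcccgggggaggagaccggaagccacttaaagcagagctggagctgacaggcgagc

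In Cyp1b1 the single match begins 76 bases before the start, on the opposite strand. Ahrr has 3 matches, at 107, 82, and 27 bases before the start. In Tiparp there is 1, at 170 bases on the opposite strand. Arnt, the only other gene of the 5 matched in the promoter table, also has 1, at 29 bases. All 4 windows therefore hold the 5-base core, which 9250 of 32851 promoters of the same length (28.2%) hold on either strand. The longer form TNGCGTG, which contains the core, was found in Ahrr only among the 4 and in 4.1% of all promoters. A match describes the letters of the window and is not evidence of binding.

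Ahr, the receptor, lies on the minus strand at chr12:35547973-35585057 of GRCm39, the build used for the counts, with 11 exons in its canonical GENCODE transcript. Its normalized count, a count rescaled for library size and composition to an average library, was 1803, 1827, 1853, and 1787 in MDSC replicates 1 to 4. In MDSC-NP-Blk it was 2318, 3100, 3045, and 2473, and in CITED it was 3694, 4091, 3688, and 3854. The 3 groups did not overlap, with every blank-particle library above every MDSC library and every CITED library above both. The group means were 1817 ± 29.0 for unmodified cells, 2734 ± 397 with blank particles, and 3832 ± 189 for CITED (SD, n = 4). Compared with MDSC, Ahr rose 2.11-fold in CITED (log2 1.08, SE 0.07, adjusted p = 3e-15) and 1.51-fold in MDSC-NP-Blk (log2 0.59, SE 0.07, adjusted p = 9.1e-09). CITED exceeded MDSC-NP-Blk 1.4-fold (log2 0.48, SE 0.07, adjusted p = 9.7e-07). The adjusted p-values are from edgeR's quasi-likelihood test with Benjamini-Hochberg adjustment over all genes tested, here and throughout, and a gene is said to have risen, fallen, or passed the test when this value was below 0.05.

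The blank-particle libraries split in Ahr, with replicates 1 and 4 below 2 and 3. These libraries also differed in how strongly expression depended on transcript length. Across 10547 genes, the rank correlation between length and a gene's level relative to its mean over libraries was -0.421 and -0.243 in MDSC-NP-Blk replicates 1 and 4, against -0.0473 and 0.0926 in replicates 2 and 3. It was 0.217 to 0.346 in MDSC and -0.342 to -0.187 in CITED, so this trend moved with the groups. With the trend removed, the log2 differences of Ahr were larger, at 1.26 for CITED and 0.71 for MDSC-NP-Blk against MDSC.

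Arnt, the nuclear partner of AhR, moved least. It lies on the plus strand at chr3:95341365-95404551 and has 22 exons. Normalized counts were 1560, 1662, 1621, and 1707 in the MDSC libraries, 1896, 1955, 1896, and 1768 with blank particles, and 1819, 1725, 1969, and 1885 in CITED. Both particle groups stood just above MDSC without overlap, and they overlapped each other. Arnt rose by log2 0.20 (SE 0.06, adjusted p = 0.0064) in MDSC-NP-Blk and by 0.18 (SE 0.06, adjusted p = 0.014) in CITED against MDSC. The value for CITED lost the test without MDSC replicate 1 (log2 0.15, adjusted p = 0.057) or without CITED replicate 3 (log2 0.15, adjusted p = 0.07). Scaling by library totals alone turned both directions, to -0.10 for CITED and -0.06 for MDSC-NP-Blk, with the median of all genes then at -0.323 and -0.286. Removing the length trend raised them to 0.30 and 0.28. Between CITED and MDSC-NP-Blk, Arnt differed by log2 -0.02 (95% interval -0.144 to 0.097, adjusted p = 0.86).

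**Figure D1:**
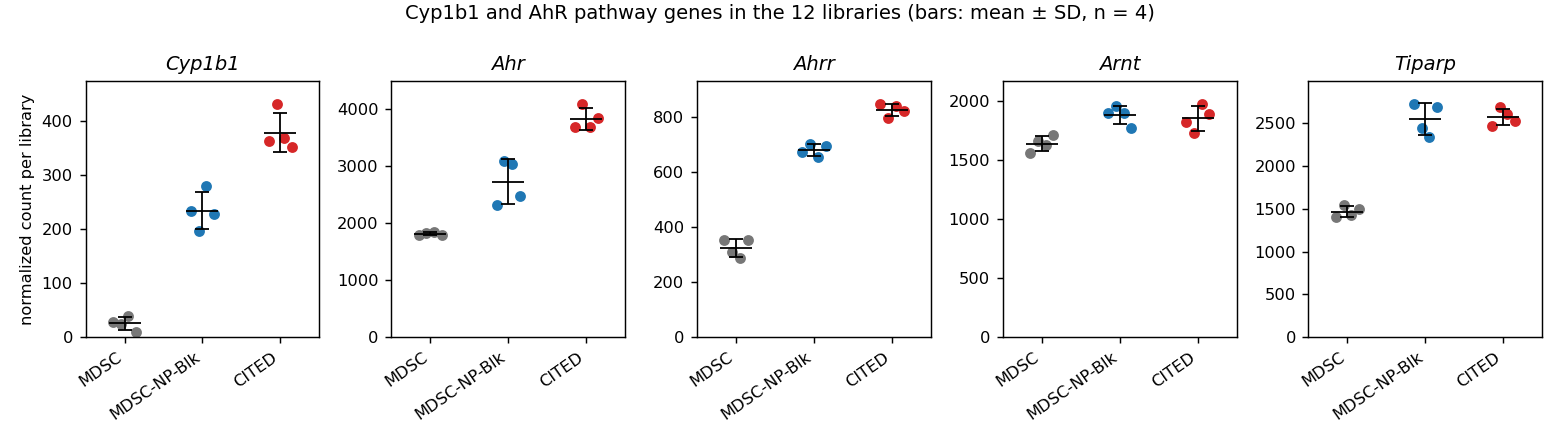
Normalized counts (y axis, linear and starting at 0) of Cyp1b1, Ahr, Ahrr, Arnt, and Tiparp in the MDSC, MDSC-NP-Blk, and CITED libraries (x axis), 1 point per library, with bars for mean ± SD (n = 4). Cyp1b1, Ahr, and Ahrr form 3 separate levels, while in Arnt and Tiparp the 2 particle groups overlap.

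Ahrr, the repressor of the pathway, is encoded on the minus strand at chr13:74359237-74440462 with 11 exons. Its normalized counts were 353.8, 310.4, 286.6, and 352.3 in MDSC. The blank-particle libraries gave 674.3, 703.6, 656.0, and 695.2, and the CITED libraries gave 848.0, 796.4, 841.5, and 824.0. No library of 1 group reached into another. Against MDSC, Ahrr rose 2.54-fold in CITED (log2 1.34, SE 0.08, adjusted p = 8.4e-16) and 2.09-fold in MDSC-NP-Blk (log2 1.07, SE 0.08, adjusted p = 7.4e-13). The step from MDSC-NP-Blk to CITED was 1.21-fold (log2 0.28, SE 0.08, adjusted p = 0.0083).

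Tiparp, the ADP-ribosyltransferase, is on the plus strand at chr3:65435320-65463365 with 6 exons. MDSC libraries had 1407, 1542, 1427, and 1497 normalized counts, MDSC-NP-Blk libraries 2721, 2442, 2343, and 2694, and CITED libraries 2470, 2693, 2605, and 2526. All 8 particle libraries were above all 4 MDSC libraries, and the CITED libraries lay within the range of the blank-particle libraries. The rise was 1.75-fold in CITED (log2 0.81, SE 0.06, adjusted p = 9.8e-14) and 1.74-fold in MDSC-NP-Blk (log2 0.80, SE 0.06, adjusted p = 3.2e-13). The difference between the particle groups was log2 0.01, with a 95% interval of -0.105 to 0.133 (adjusted p = 0.93). Exons of 2 genes on the opposite strand, Gm38503 and Gm34924, overlap Tiparp by 1600 and 169 bases. Ahr is overlapped by exons of Gm48236 on the opposite strand, over 127 bases. Whether the counting used the strand is not stated, so reads of these genes and of Tiparp or Ahr cannot be told apart.

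Cyp1b1, the P450 enzyme that oxidizes polycyclic hydrocarbons and estradiol, lies on the minus strand at chr17:80008966-80022532 and has 3 exons. It was nearly silent in unmodified cells, with 36, 26, 43, and 9 counts as deposited, or 28.2, 24.7, 39.5, and 9.03 normalized counts. In MDSC-NP-Blk the normalized counts were 234.1, 195.3, 278.6, and 227.4, and in CITED they were 362.7, 430.5, 367.6, and 352.2. The lowest blank-particle library was well above the highest MDSC library, and the lowest CITED library was above the highest blank-particle library. Means were 25.4 ± 12.6, 233.9 ± 34.3, and 378.3 ± 35.4 (SD, n = 4). The fitted ratios to MDSC were 14.6 in CITED (log2 3.87, SE 0.20) and 9.03 in MDSC-NP-Blk (log2 3.17, SE 0.20). MDSC replicate 4 held 9 counts, and without it these log2 values were 3.61 and 2.92.

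The difference between CITED and MDSC-NP-Blk was not itself used to choose Cyp1b1, but the values of both groups were. Its test is therefore not independent of that choice. Cyp1b1 was 1.62-fold higher in CITED (log2 0.70, SE 0.15, 95% interval 0.385 to 1.010, adjusted p = 0.00073), and each of the 4 CITED libraries exceeded each of the 4 blank-particle libraries. No 31-base stretch of the canonical Cyp1b1 transcript occurs in transcripts of another gene, and the same held for Ahrr and Tiparp. Other transcripts of these genes and the reverse complement were not compared. For Ahr the share of such stretches was 0.0361% and for Arnt 0.749%.

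**Figure D2:**
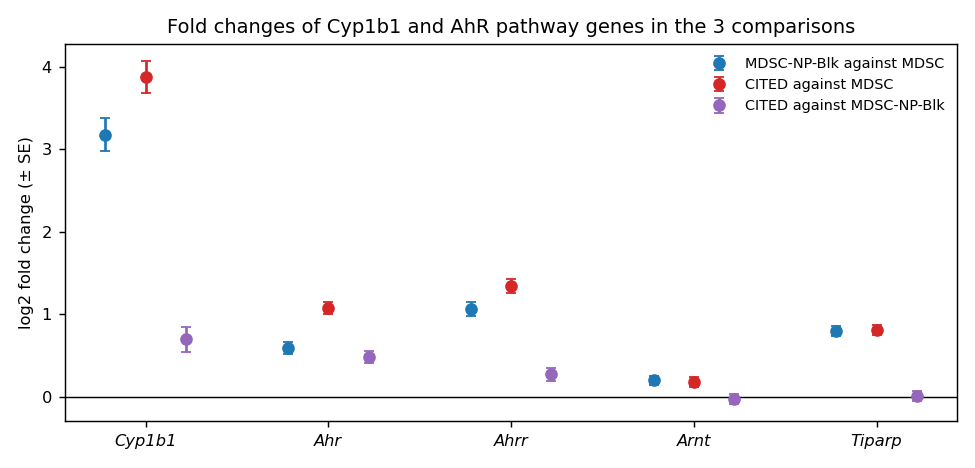
Fitted log2 fold changes (y axis) with standard errors for the 5 genes (x axis) in the 3 comparisons, shown by color. Both comparisons with MDSC use the same 4 control libraries. Cyp1b1 lies at 3.87 and 3.17 against MDSC, and Arnt and Tiparp lie near 0 between CITED and MDSC-NP-Blk.

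Set against all genes tested, the 4 genes other than Cyp1b1 all rose in CITED against MDSC, where 22.2% of genes rose and 22.2% fell. They were taken for their place in the pathway with earlier results of these data known, so these shares are a description. All 4 also rose in MDSC-NP-Blk against MDSC, where 19.9% of genes rose and 18.6% fell. Their libraries did not overlap in these comparisons, which held for 21.2% and 18.1% of genes in the upward direction. The fold threshold of the study, a log2 change of at least 1 together with the test, was met by Ahr and Ahrr in CITED, where 3.28% of genes met it upward, and by Ahrr in MDSC-NP-Blk, where 1.88% did. By library totals alone, Ahr in CITED (log2 0.80) and Ahrr in MDSC-NP-Blk (log2 0.80) fell short of it. In CITED against MDSC-NP-Blk, Ahr and Ahrr rose among these 4. Of all genes there, 10.5% rose, 11.4% fell, and 10.4% were higher without overlap. Cyp1b1 also passed in this comparison, but it was chosen by its values in both groups, so these shares are not a reference for it. None of the 5 reached a log2 rise of 1 there, which 0.651% of genes did. Both comparisons with MDSC share their control libraries, so their values are not independent of each other. In bulk RNA, a change in the proportion of monocytic and polymorphonuclear cells and a change in RNA per cell cannot be told apart. Among the MDSC markers, Csf3r, the granulocyte colony-stimulating factor receptor gene, had mean normalized counts of 4329 ± 389 in unmodified cells, 10976 ± 193 with blank particles, and 12598 ± 698 in CITED (SD, n = 4). Ly6c2, a monocytic surface antigen gene, had 25635 ± 510, 33581 ± 479, and 20180 ± 1288, and Ly6g, a granulocytic one, had 3924 ± 104, 4603 ± 433, and 4561 ± 137. The part of these shifts in the changes of the 5 genes was not tested.

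On a scale per kilobase of transcript and CPM, which allows levels of different genes to be compared, Arnt at 14.2 and Ahr at 13.3 were the highest of the 5 in MDSC and overlapped between libraries. Tiparp followed at 11.6, Ahrr at 2.78, and Cyp1b1 at 0.199, each apart from the next in every library. In MDSC-NP-Blk, Tiparp at 20.2 and Ahr at 20.0 overlapped at the top, above Arnt at 16.2, Ahrr at 5.82, and Cyp1b1 at 1.83. In CITED, Ahr at 28.0 stood above Tiparp at 20.4, Arnt at 16.0, Ahrr at 7.06, and Cyp1b1 at 2.96, with no overlap between neighbors. Cyp1b1 was thus the lowest of the 5 in all 3 groups despite its large ratio.

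The wider set of known AhR targets holds 16 genes, Cyp1b1, Ahrr, and Tiparp among them. Cyp1a2 and Gsta1 had 0 counts in all libraries, and 14 genes were tested. Leaving out Cyp1b1, 6 of 13 rose and 0 fell in CITED against MDSC, with a median log2 change of 0.81 against -0.052 over all genes. In MDSC-NP-Blk against MDSC, 6 rose and 1 fell (median 0.80, all genes -0.027), and in CITED against MDSC-NP-Blk, 3 rose and 0 fell (median 0.28, all genes 0.000). In the same order, 22.2%, 19.9%, and 10.5% of all genes rose, and 22.2%, 18.6%, and 11.4% fell. By library totals alone, 5 rose and 2 fell in CITED against MDSC. The list thus held risers in both particle groups but also 6 or 7 genes that did not pass in each comparison with MDSC.

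Nqo1, a quinone reductase that responds to AhR and to the oxidative stress factor Nrf2, had 362 ± 36.7 normalized counts in unmodified cells, 616 ± 20.6 with blank particles, and 893 ± 74.2 in CITED (SD, n = 4). Its libraries did not overlap between groups, and it rose by log2 1.30 (SE 0.08, adjusted p = 4.4e-15) in CITED and 0.77 (SE 0.09, adjusted p = 3.7e-09) in MDSC-NP-Blk against MDSC, and by 0.54 (SE 0.08, adjusted p = 4.4e-06) between the particle groups. The glucuronosyltransferase genes Ugt1a6a and Ugt1a6b also rose in both comparisons with MDSC, with means of 156 and 63.6 in unmodified cells, 298 and 139 with blank particles, and 281 and 181 in CITED, but genes of this locus share their last exons and reads may be divided between them. Nfe2l2, which encodes Nrf2, rose from 4669 ± 247 to 6300 ± 878 in MDSC-NP-Blk and 6060 ± 123 in CITED. By library totals alone its rise in CITED was log2 0.10 and did not pass (adjusted p = 0.2).

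Socs2, an inhibitor of cytokine signaling, fell in MDSC-NP-Blk against MDSC (log2 -0.22, SE 0.07, adjusted p = 0.012) and was higher in CITED than in MDSC-NP-Blk (log2 0.31, SE 0.07, adjusted p = 0.0012), with means of 876 normalized counts in unmodified cells, 751 with blank particles, and 930 in CITED. Cyp1a1, the other classical P450 target, was barely detected, with 0 to 2 counts per MDSC library, 0 in all MDSC-NP-Blk libraries, and 0 to 3 in CITED. At this depth no difference in Cyp1a1 could be shown, and the same holds for Il22, at 0 to 3 counts, and for Ido1, at 1 to 9.

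**Figure D3:**
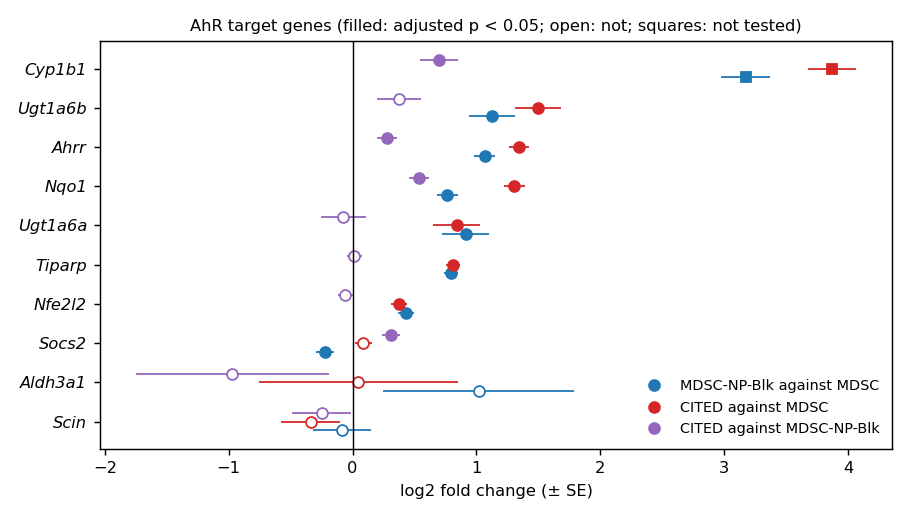
Fitted log2 fold changes (x axis) with standard errors of the 10 AhR target genes whose mean normalized count reached 10 in at least 1 group, in the 3 comparisons. Filled circles passed the test, open circles did not, and squares mark the untested values of Cyp1b1 against MDSC; Ugt1a6b, Ahrr, and Nqo1 lie nearest to Cyp1b1 in CITED against MDSC.

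Of the 5 genes for proteins that hold or act with AhR in the cytosol, 4 rose and 1 fell in each comparison with MDSC. Among all genes, 22.2% rose and 22.2% fell in CITED, and 19.9% rose and 18.6% fell in MDSC-NP-Blk. Src, the kinase bound to the resting receptor, rose by log2 1.07 (SE 0.09, adjusted p = 2.4e-12) in CITED and 0.67 (SE 0.09, adjusted p = 1.3e-07) in MDSC-NP-Blk. Hsp90aa1, the inducible Hsp90 form, fell by 0.65 (SE 0.05, adjusted p = 3.7e-14) and 0.50 (SE 0.05, adjusted p = 4.6e-11) on the log2 scale. Ptges3, which encodes p23, and Hsp90ab1 rose by smaller amounts, and under library totals alone neither rose. That scaling gave 1 rise and 2 falls among the 5 genes in CITED, with Hsp90ab1 at log2 -0.10, and 1 rose and 1 fell in MDSC-NP-Blk. Between the particle groups, Src and Ptges3 were higher and Hsp90aa1 was lower in CITED, where 10.5% of all genes rose and 11.4% fell.

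The 10 coactivators and corepressors listed for AhR and Arnt included no gene that rose. Over all genes, 22.2% rose and 22.2% fell in CITED, and 19.9% rose and 18.6% fell in MDSC-NP-Blk, against MDSC. Of the 10, 9 fell in CITED (median log2 -0.40) and 6 in MDSC-NP-Blk (median -0.29) against MDSC. They included Smarca4 (-0.39 and -0.45) and, in CITED, Ncor1 (-0.55, adjusted p = 1.6e-09). With the length trend removed, 4 fell and 1 rose in CITED, and 3 fell and 1 rose in MDSC-NP-Blk, and the share of this trend in the falls was not otherwise tested. In CITED against MDSC-NP-Blk, where 11.4% of all genes fell, 2 of the 10 did, Ep300 and Ncor1. With the trend removed neither passed.

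Tryptophan breakdown is a source of AhR ligands, and 15 genes of amino acid uptake and of the kynurenine and indole routes were listed. Aadat had 0 counts in all libraries. Over all genes, 22.2% rose and 22.2% fell in CITED, and 19.9% rose and 18.6% fell in MDSC-NP-Blk, against MDSC. Between the particle groups, 10.5% of all genes rose and 11.4% fell. Of the 14 list genes tested, 1 rose and 6 fell in CITED against MDSC, and 2 rose and 5 fell in MDSC-NP-Blk against MDSC. Between the particle groups, 1 of them rose and 4 fell. By library totals alone, 1 rose and 9 fell in CITED against MDSC, and 1 rose and 6 fell in MDSC-NP-Blk against MDSC. Slc3a2, the heavy chain of the large neutral amino acid transporter and of the cystine transporter, rose by log2 1.20 (SE 0.05, adjusted p = 3.9e-21) in CITED and 0.71 (SE 0.05, adjusted p = 8.5e-15) in MDSC-NP-Blk, while Slc7a5, the light chain that carries tryptophan, fell by 0.46 (SE 0.07, adjusted p = 1.4e-06) and 0.49 (SE 0.07, adjusted p = 7.2e-07). Il4i1, an amino acid oxidase that forms indole ligands, was higher in MDSC-NP-Blk than in MDSC (log2 0.29, adjusted p = 0.004, not passed by library totals alone) and lower in CITED than in MDSC-NP-Blk (log2 -0.31, adjusted p = 0.0052). Got2 fell in both comparisons with MDSC, by 0.49 and 0.28.

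Tiparp belongs to the family of poly- and mono-ADP-ribosyltransferases, of which 16 were listed. In CITED against MDSC, 7 rose and 6 fell, where 22.2% of all genes rose and 22.2% fell. In MDSC-NP-Blk against MDSC, 6 rose and 3 fell, where 19.9% of all genes rose and 18.6% fell. These splits depended on the processing. Library totals alone gave 5 rises and 7 falls in CITED and 1 rise and 7 falls in MDSC-NP-Blk, where the 1 rise was that of Tiparp. With the length trend removed, 10 rose and 5 fell in CITED, and 9 rose and 2 fell in MDSC-NP-Blk. Parp1, the main nuclear enzyme of DNA repair, fell by 0.78 (SE 0.07, adjusted p = 3.8e-12) in CITED and 0.67 (SE 0.07, adjusted p = 2.3e-10) in MDSC-NP-Blk. Parp12, an interferon-responsive member, was higher in CITED than in MDSC (log2 0.88, SE 0.10, adjusted p = 2.3e-09) and than in MDSC-NP-Blk (log2 0.93, SE 0.10, adjusted p = 4e-09).

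Among 95 cytochrome P450 symbols in the table, 60 had 0 counts and 33 were tested. In CITED against MDSC, leaving out Cyp1b1, 5 of them rose and 5 fell, where 22.2% of all genes rose and 22.2% fell. One of the risers, Cyp2a5, had 0 to 6 counts in CITED and 0 in MDSC, and did not pass by library totals alone (adjusted p = 0.051). Cyp4f39, counted as falling, had 0 to 15 counts in MDSC and 0 in CITED, and did not pass in DESeq2 (adjusted p = 0.21). By library totals alone, 5 rose, Cyp1b1 included, and 6 fell. Cyp4f18, which inactivates leukotriene B4, rose by log2 1.02 (SE 0.06, adjusted p = 4.7e-16) in CITED and 0.75 (SE 0.06, adjusted p = 2.8e-12) in MDSC-NP-Blk. Cyp4v3, a fatty acid hydroxylase, rose by 1.28 (SE 0.08, adjusted p = 4.8e-15) and 0.86 (SE 0.08, adjusted p = 2.1e-10). Cyp11a1, which cuts the side chain of cholesterol, was lower in CITED than in MDSC (log2 -0.66, SE 0.06, adjusted p = 2.8e-11) and than in MDSC-NP-Blk (log2 -0.68, SE 0.06, adjusted p = 9.6e-11), with means of 1929, 1953, and 1223 normalized counts in MDSC, MDSC-NP-Blk, and CITED.

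Of all P450 counts in a library, Cyp1b1 made up 0.15% to 0.635% in unmodified cells, 2.38% to 3.49% with blank particles, and 4.00% to 4.89% in CITED. The sum of all P450 genes was scaled by library totals alone, without the rescaling for composition. It came to between 278 and 290 CPM in unmodified cells, between 308 and 337 with blank particles, and between 330 and 340 in CITED. Most of the P450 counts thus came from other genes in every group. P450 enzymes of the endoplasmic reticulum can take electrons from Por, and from Cyb5a and Cyb5r3. All 3 were higher in CITED than in MDSC, by log2 0.44, 0.69, and 0.30, where 22.2% of all genes rose. Of these, Cyb5a rose in MDSC-NP-Blk (log2 0.43, adjusted p = 2.8e-06), where 19.9% of all genes did. By library totals alone Cyb5r3 did not pass in CITED against MDSC, and the 3 genes gave 1 rise and 1 fall in MDSC-NP-Blk.

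The genes whose profile was closest to that of Cyp1b1 over the 12 libraries were found by the root mean square difference of log2(normalized count + 1), centered on each gene's mean, among 10555 genes with a mean normalized count of at least 50. Cd14, the lipopolysaccharide coreceptor, was closest at 0.632, followed by the chemokine gene Cxcl3 at 0.659, the ubiquitin ligase gene Fbxo32 at 0.703, Mpzl2 at 0.745, and the immediate early gene Egr1 at 0.762, where the profile of Cyp1b1 itself has a root mean square of 1.81. Mean normalized counts of Cd14 were 7268, 44248, and 56878 in MDSC, MDSC-NP-Blk, and CITED. Those of Fbxo32 were 45.4, 226, and 347. These genes were selected for their values, so no test is given. Csf2rb2 (0.080) and Slc7a11 (0.081) were closest to Ahr, Tmco6 (0.098) and Tmem243 (0.103) to Ahrr, Was (0.040) and Emp3 (0.047) to Arnt, and Slc25a39 (0.057) and Sqor (0.058) to Tiparp.

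**Figure D4:**
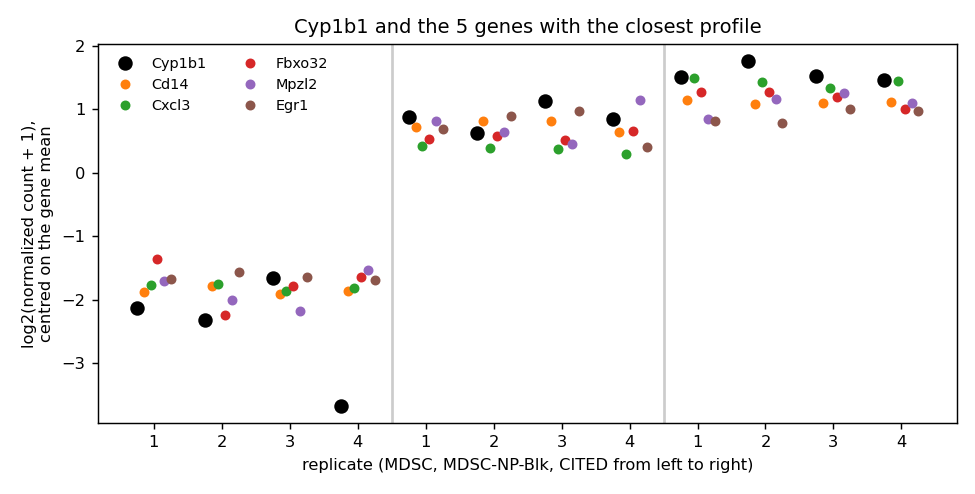
Log2(normalized count + 1), centered on each gene's mean (y axis), for Cyp1b1 and the 5 genes with the closest profile in each library (x axis, replicates 1 to 4 of MDSC, MDSC-NP-Blk, and CITED). Cyp1b1 in MDSC replicate 4, at 9 counts, is the lowest point, and the 5 other genes lie lower in MDSC than in either particle group in every library.

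Markers of other myeloid cells moved with the groups. The 6 macrophage markers summed to 889 to 962 CPM in unmodified cells, 1286 to 1391 with blank particles, and 1607 to 1672 in CITED, but they did not move together. Csf1r and Cd68 rose in both particle groups against MDSC, Cd68 from a mean of 6096 normalized counts to 7246 with blank particles and 12678 in CITED. Mertk and C1qa fell, the last with means of 559 normalized counts in unmodified cells, 177 with blank particles, and 33.8 in CITED. Dendritic cell markers summed to 162 to 179, 224 to 239, and 198 to 227 CPM in the same order. Most of this sum was H2-Aa, with means of 3994, 5610, and 5117 normalized counts. The other dendritic markers did not follow it. Zbtb46 had means of 69.4, 34.2, and 56.0, Flt3 of 50.4, 74.5, and 49.0, and Cd209a of 30.4, 27.3, and 36.9. The 4 mast cell or basophil markers summed to 155 to 169, 166 to 193, and 102 to 110 CPM, and the 3 B cell markers to 3.55 to 5.87, 2.92 to 3.94, and 1.37 to 1.71. None of the markers of these 4 cell types was at 0 throughout a group, and their part in the changes of Cyp1b1 and the AhR genes was not tested.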

How the data were processed

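Poly(A)-enriched RNA of 12 mouse MDSC libraries, 4 per group, was analyzed. The deposited table holds integer counts for each symbol, which the authors obtained with Salmon 1.4.0 against GENCODE transcripts of GRCm39 and summed per gene with tximport in R 4.3.2. The counts are not normalized or filtered. Groups and replicate numbers came from the titles. An entry with an empty symbol (0% of counts) was left out.

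Genes with at least 2 counts over all libraries were tested in R 4.3.3 with edgeR 4.0.16 (TMM factors, quasi-likelihood test, 1 fit to the 12 libraries with the group as its only term). P-values were adjusted by Benjamini-Hochberg over the 17676 genes. The scripts were tested on simulated data. The alternatives included DESeq2 1.42.0, other scalings and filters, removal of a length trend (loess, span 0.5), a replicate block, and leaving out each library. A detection floor of 3 counts is 7.92e-06% to 1.46e-05% of a library, covering counting error only.

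The genes and lists were chosen with earlier results of these data known. In each list the text names some of the 3 genes with the lowest p in each direction and comparison, genes at 0, the 5 genes closest to Cyp1b1, and the 2 closest to each other gene. Ugt1a6a, Ugt1a6b, Nfe2l2, Cyp1a1, Il22, Ido1, Mbp, S100a8, S100a9, Cyp2a5, Cyp4f39, and the dendritic cell markers were named after their values were seen. So were list members named for changing with scaling or length. Gene positions and lengths are those of GENCODE release M39, and the authors' release is not given in the sources used here. Promoters came from a RefSeq table, in which 4 of the 5 genes were matched. Whether reads were counted by strand is not stated. Some list genes are not reported here by name.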

Additional observations from a re-analysis of the deposited data

How the results depend on the processing

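Cyp1b1, Ahr, and Ahrr kept their direction in every comparison under all alternatives run. Ahr and Ahrr kept an adjusted p below 0.05 in all 3 comparisons, Cyp1b1 did so between CITED and MDSC-NP-Blk, and Tiparp in both comparisons with MDSC. By library totals alone, Ahr in CITED (0.802) and Ahrr in MDSC-NP-Blk (0.804) no longer reached a log2 change of 1 against MDSC. Of the alternative values, 432 were rated unchanged. This meant a similar number for a count of genes, or the same direction and, where tested, the same test result for a gene. Of the rest, 7 changed direction, 2 lost the test, and 4 moved. Relative to MDSC, Arnt turned to -0.098 in CITED and to -0.063 in MDSC-NP-Blk by library totals alone, a scaling that shifts the median of all genes. Leaving out 1 library gave Arnt log2 values of 0.145 to 0.208 in CITED against MDSC, with adjusted p-values of 0.0064 to 0.07. Between CITED and MDSC-NP-Blk, where neither Arnt nor Tiparp passed, Arnt was 0.018 with the length trend removed and -0.053 to 0.010 without 1 library, including 0.010 without CITED replicate 2. Tiparp was -0.023 to 0.047 without 1 library, including -0.006 without MDSC-NP-Blk replicate 2, -0.023 without replicate 3, and -0.006 without CITED replicate 2. Using the adjusted p alone, without the fold threshold, moved the genes called from 1765 to 7862 in CITED against MDSC, from 838 to 6815 in MDSC-NP-Blk against MDSC, and from 469 to 3883 in CITED against MDSC-NP-Blk. The longer motif matched 1 promoter in place of 4.

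Same-numbered libraries deviated from their group means with correlations of -0.071 to 0.165 over 10560 genes, so the replicate numbers were not taken as pairs. With the replicate block, 1621, 766, and 441 genes were called in the 3 comparisons, and no call of the 5 genes changed. The 9 to 43 counts of Cyp1b1 in MDSC libraries limit the precision of its ratios, whose log2 value ran from 3.61 to 4.15 in CITED and 2.92 to 3.45 in MDSC-NP-Blk without 1 library.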

Other observations

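Other members of the bHLH-PAS family, to which Ahr, Ahrr, and Arnt belong, also differed between the groups. Of 18 symbols listed, 16 were in the table, Sim1 and Sim2 were at 0 in all libraries, and 14 were tested. In CITED against MDSC, 4 rose and 4 fell, where 22.2% of all genes rose and 22.2% fell. In MDSC-NP-Blk against MDSC, 4 rose and 3 fell, where 19.9% of all genes rose and 18.6% fell. In CITED against MDSC-NP-Blk, 4 rose and 1 fell, where 10.5% of all genes rose and 11.4% fell. These counts include Ahr, Ahrr, and, against MDSC, Arnt, and by library totals alone 3 rose and 4 fell in each comparison with MDSC. Hif1a, the hypoxia factor that also pairs with Arnt, had 8521 ± 386, 11331 ± 1377, and 15060 ± 640 normalized counts in MDSC, MDSC-NP-Blk, and CITED (SD, n = 4). It rose by log2 0.82 (SE 0.06, adjusted p = 7e-14) in CITED and 0.41 (SE 0.06, adjusted p = 5.6e-07) in MDSC-NP-Blk against MDSC, and by 0.41 (SE 0.06, adjusted p = 1.5e-06) between the particle groups.

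Hif3a, whose protein can hold back hypoxia factors, had 118 ± 19.0 normalized counts in MDSC and 99.5 ± 48.5 in MDSC-NP-Blk, but 4 to 6 counts in each CITED library. It fell by 4.37 (SE 0.35, adjusted p = 1e-12) against MDSC and by 4.10 (SE 0.36, adjusted p = 4.5e-11) against MDSC-NP-Blk on the log2 scale. Of the circadian genes, Bmal1 fell in CITED against MDSC (log2 -0.58, adjusted p = 0.001). Clock fell in MDSC-NP-Blk against MDSC (log2 -0.71, adjusted p = 1.9e-07) and in CITED against MDSC (log2 -0.33, adjusted p = 0.0045), where removal of the length trend left 0.06 (adjusted p = 0.65). It was higher in CITED than in MDSC-NP-Blk by log2 0.38 (adjusted p = 0.0036).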
